A study of Sus scrofa with 18 samples.

Results

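The liver transcriptome of growing pigs was examined for a response at the middle of 3 dietary doses that departed from both ends of the series. The comparison used all 18 of the 18 arrays, and the contrast was computed for each of 25388 probe sets. Group CON received 0% insect meal, group IM5 received 5% and group IM10 received 10%, with 6 pigs in each group. The insect meal was made from larvae of Tenebrio molitor, the yellow mealworm, and took the place of part of the soybean extraction meal in IM5 and of all of it in IM10. All pigs were male crossbreds of Piétrain boars and German Landrace × German Edelschwein sows, were 5 weeks old when the trial began and were fed their diet for 4 weeks. The diets also differed in added cellulose, in oils and in free amino acids, so a step in insect meal was a step in these as well and their parts cannot be told apart. Feed was offered ad libitum, and the pigs were killed in the fed state. Pigs shared pens within a group, and since it is not given which pigs did, each was taken as independent. The 6 pigs per group were drawn from 10, with 1 liver sample and 1 array per pig.

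The liver adjusts its gene expression to the supply of nutrients through several routes. When dietary carbohydrate or insulin is low, hepatocytes switch on gluconeogenesis and the transamination of amino acids, while ample sterol shuts down cholesterol synthesis. Growth hormone, glucocorticoids and inflammatory signals act on overlapping sets of genes, and the resident macrophages, endothelial cells and stellate cells contribute their own transcripts to a bulk sample. A dose response that is monotone places the middle dose between the ends, whereas a peak or a dip places it outside both.

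For each probe set the quadratic contrast was the mean of IM5 minus the average of the means of CON and IM10, on the log2 scale of the deposited values. With 6 pigs per group this equals the mean of the 6 IM5 pigs minus the mean of the 12 other pigs. A probe set met the criteria where this contrast exceeded 1.2-fold (0.26 on the log2 scale) with an unadjusted two-sided p under 0.05 in limma, as in the pairwise criteria of the study. Under them 137 probe sets were higher in IM5 (0.54% of all tested) and 116 were lower (0.457%), which together made 253 (0.997%). Without the criterion on fold, 1595 probe sets (6.28%) had an unadjusted p under 0.05, a share that lies close to that threshold itself. After Benjamini-Hochberg adjustment in limma 0 probe sets remained at 0.05, and the smallest adjusted p was 0.498. The same count was 0 in the fit without moderation of the variances, where 1640 probe sets had an unadjusted p under 0.05. No gene described here therefore passed a correction for the number of probe sets, and the genes were chosen for their contrast, so their unadjusted and exact p-values describe selected genes.

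The contrasts were small for the array as a whole. Their median over all probe sets was 0.00, their SD was 0.10, and they ran between -1.25 and 1.39 on the log2 scale. In all 253 probe sets that met the criteria the mean of IM5 lay outside the means of both other groups, which a large contrast nearly fixes. The median size of the contrast was 0.31 in the 137 higher probe sets and 0.32 in the 116 lower ones, and it exceeded 0.5 in 19 and 11 of them. The linear term, the mean of IM10 minus that of CON, met the same criteria in 485 probe sets (1.91%), of which 1 with no gene name had an adjusted p under 0.05 in limma.

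A quadratic contrast also arises where a level reached at 5% is held at 10%. A peak or a dip was therefore called only where IM5 differed from CON and from IM10 in the same direction, each by over 1.2-fold with an unadjusted p under 0.05 in limma. Peaks numbered 33 (0.13% of all probe sets) and dips 36 (0.142%), and 15 and 17 of these had a single gene name. The remaining 184 probe sets that met the quadratic criteria missed the fold or the p criterion against at least 1 of the other groups. Some of these, such as KYNU, missed only the criterion on fold against 1 group. Because both differences contain the same IM5 pigs, they are not independent of each other, and a shift of the IM5 mean alone moves a probe set along the diagonal of a plot of one against the other.

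**Figure D1:**
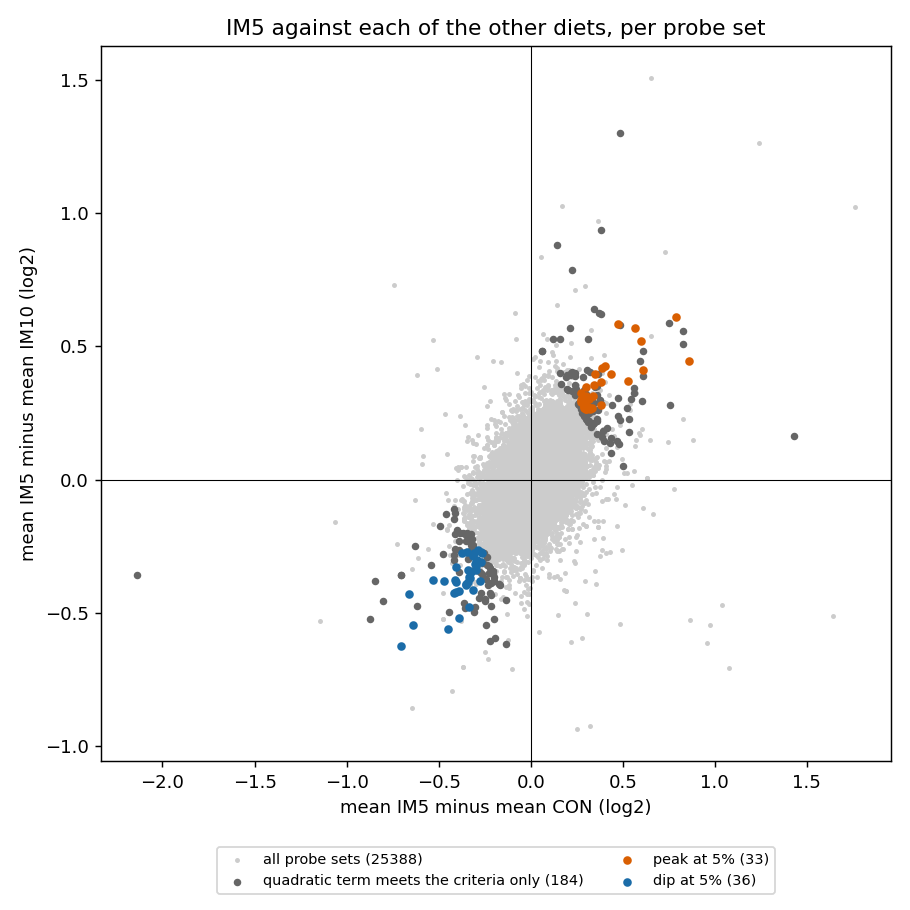
Each point is 1 probe set, placed by the mean of IM5 minus the mean of CON (horizontal, log2) and by the mean of IM5 minus the mean of IM10 (vertical, log2). The 33 peaks lie at the upper right and the 36 dips at the lower left, and the IM5 arrays enter both axes.

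Among genes of gluconeogenesis and the fasted liver, 3 met the criteria, all higher in IM5. PCK1 encodes the cytosolic phosphoenolpyruvate carboxykinase, which commits carbon to glucose synthesis. Its values ran between 7.39 and 9.02 with a mean of 8.34 ± 0.55 in CON, between 8.24 and 9.90 with a mean of 9.13 ± 0.63 in IM5, and between 7.81 and 9.20 with a mean of 8.52 ± 0.49 in IM10 (SD, n = 6 each). A pair of IM5 pigs stood above all 12 others, but the groups overlapped. PCK1 was 1.62-fold higher in IM5 than in the average of the other diets (contrast 0.70 ± 0.25 on the log2 scale, SE, unadjusted p = 0.0099 and adjusted p = 0.781 in limma), and the exact permutation test gave p = 0.0234. Exact tests of single pairs gave p = 0.0455 for IM5 against CON and p = 0.0931 for IM5 against IM10. A second probe set of PCK1 had a contrast of 0.56 ± 0.20 with an exact p of 0.0264, and both probe sets were among the peaks.

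GPT2 encodes the mitochondrial alanine aminotransferase, which turns alanine into pyruvate. Its values ran between 6.05 and 6.65 in CON (median 6.42), between 6.41 and 8.47 in IM5 (median 6.94) and between 5.71 and 7.63 in IM10 (median 6.35). The CON pigs were close together, whereas both insect meal groups were spread widely and 1 IM5 pig was far above the rest. The contrast was 0.67 ± 0.26 (exact permutation p = 0.0464), and without that pig, IM5 replicate 5, it was 0.40 and no longer met the criteria (unadjusted p = 0.0878 in limma). FOXO1, a transcription factor that insulin keeps out of the nucleus and that activates gluconeogenic genes, had means of 5.20 ± 0.25 in CON, 5.52 ± 0.39 in IM5 and 5.21 ± 0.21 in IM10 (SD, n = 6 each). Of the 6 IM5 pigs 4 exceeded all other pigs, and the contrast of 0.32 ± 0.13 was 0.18 without IM5 replicate 5 and also missed the criteria without IM5 replicate 1.

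The list of gluconeogenic and fasting-induced genes held 14 measured members, of which 3 were higher by the criteria and 0 lower, or 21.4%, against 0.869% of the 12307 genes with 1 symbol. IM5 had the highest mean in 9 of the 14 and the lowest in 2, against 34.7% and 32.7% of all probe sets. The median contrast was 0.08, against 0.00 over all genes. Its larger side was that to IM10, with a median difference of 0.03 for IM5 minus CON and 0.14 for IM5 minus IM10. Mean levels of the list were 7.37 in CON, 7.44 in IM5 and 7.30 in IM10. The members did not share 1 pattern. IGFBP1, a binding protein for insulin-like growth factors that insulin represses, had its lowest mean in IM5, with 8.79 in CON, 7.65 in IM5 and 8.18 in IM10, and its contrast of -0.84 did not meet the criteria (unadjusted p = 0.0713 in limma). TAT, the tyrosine aminotransferase, had a contrast of 0.23 that also missed them.

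**Figure D2:**
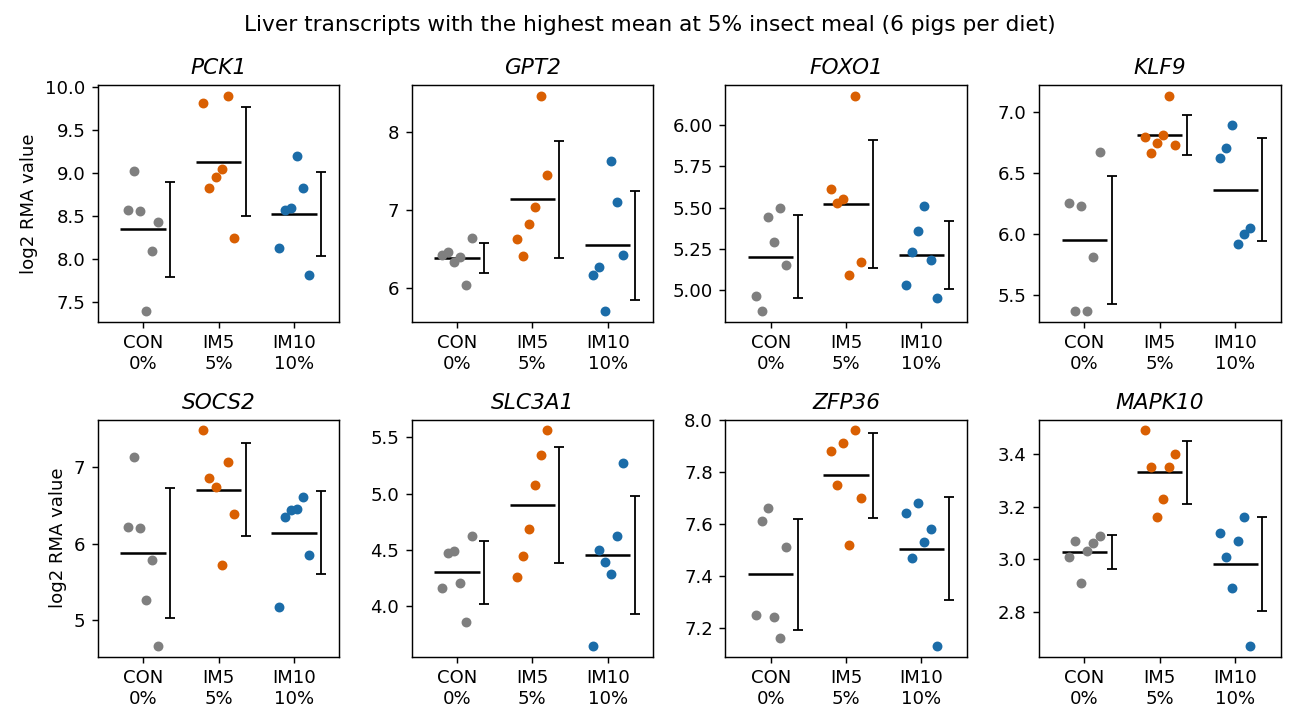
The log2 value of each pig is plotted by diet for 8 genes with the highest mean at 5% insect meal, with the group mean as a bar and the SD as a bracket to its right. The vertical axes do not start at 0 and differ between panels. IM5 values met or overlapped those of at least 1 other diet in every panel, and MAPK10 and ZFP36 had 5 of 6 IM5 pigs above all 12 others.

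KLF9 was a peak with evenly high values in IM5. It encodes a zinc finger transcription factor that glucocorticoids and thyroid hormone induce. The values were 5.37 to 6.67 in CON (median 6.02), 6.66 to 7.13 in IM5 (median 6.77) and 5.92 to 6.89 in IM10 (median 6.33). All IM5 pigs were within a narrow band that lay above 9 of the 12 other pigs. The contrast was 0.65 ± 0.18, or 1.57-fold (unadjusted p = 0.00143 and adjusted p = 0.736 in limma), with an exact permutation p of 0.00485. IM5 was higher than CON (exact p = 0.00433), while the exact test against IM10 gave p = 0.0563. Of the 12 measured glucocorticoid-responsive genes KLF9 was the only one higher by the criteria and DUSP1 the only one lower. Together they made 16.7% of the list, against 0.869% of all genes with 1 symbol. TSC22D3, the leucine zipper protein GILZ, had a contrast of -0.19 that missed the criterion on fold.

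SOCS2, a feedback inhibitor of growth hormone signalling, was 5.88 ± 0.85 in CON, 6.70 ± 0.60 in IM5 and 6.14 ± 0.54 in IM10 (SD, n = 6 each). A single IM5 pig exceeded all the others, and CON reached 7.12. The contrast of 0.69 ± 0.29 had an exact permutation p of 0.0488 and lost the criteria without IM5 replicate 1, 2 or 5, with values between 0.54 and 0.89 over all arrays left out in turn. Another STAT5-dependent inhibitor, CISH, did not place IM5 outside the ends, with means of 5.43 in CON, 6.51 in IM5 and 7.22 in IM10. IGF1, the growth factor that growth hormone induces in the liver, had means of 8.26, 8.58 and 8.02 in CON, IM5 and IM10 and a contrast of 0.45 that did not meet the criteria (unadjusted p = 0.127 in limma). The growth hormone list thus held 1 gene higher by the criteria among 11 measured (9.09%, against 0.869% of all genes with 1 symbol).

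Amino acid transporters met the criteria in 3 of 18 measured genes (16.7%, against 0.869% of all genes with 1 symbol), all higher in IM5. All 3 missed the criteria without IM5 replicate 5 alone, and also without IM5 replicate 6 alone. SLC3A1 encodes the heavy subunit of the transporter for cystine and dibasic amino acids. Its values were 3.86 to 4.62 in CON (median 4.34), 4.26 to 5.56 in IM5 (median 4.88) and 3.65 to 5.27 in IM10 (median 4.45), with a pair of IM5 pigs above all others. The contrast was 0.52 ± 0.20 (exact permutation p = 0.0391), with a lowest value of 0.39 when 1 array was left out, and it missed the criteria without IM5 replicate 5 or 6. SLC6A12, which carries betaine and GABA, had a contrast of 0.27 ± 0.11 (exact permutation p = 0.038) that became 0.19 without IM5 replicate 5. SLC38A2, a sodium-coupled carrier of small neutral amino acids, also had 0.27, with IM5 not separable from CON (exact p = 0.381), and its value without IM5 replicate 5 was 0.11 and its exact permutation p was 0.0862. Another SLC38A2 probe set with the lower signal had 0.24 (exact permutation p = 0.132) and did not meet the criteria. On this list IM5 had the highest mean in 9 genes and the lowest in 1, against 34.7% and 33.2% of all genes. The median contrast was 0.06, with a median difference of 0.02 for IM5 minus CON and 0.10 for IM5 minus IM10. At an unadjusted p under 0.05 in limma 5 genes were higher and 0 lower in IM5, against 3.31% and 2.97% of all probe sets.

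Among immediate early genes, which cells transcribe within minutes of a stimulus, ZFP36 was the only peak. It encodes tristetraprolin, a protein that brings AU-rich mRNAs to decay. Its values were 7.16 to 7.66 in CON (median 7.38), 7.52 to 7.96 in IM5 (median 7.81) and 7.13 to 7.68 in IM10 (median 7.55). Of the IM5 pigs 5 lay above all 12 others. The contrast was 0.33 ± 0.09 (exact permutation p = 0.00237), with an exact p of 0.0108 against CON and 0.0195 against IM10. EGR1, a zinc finger transcription factor, averaged 6.76 ± 0.47 in CON, 7.30 ± 0.40 in IM5 and 7.00 ± 0.29 in IM10 (SD, n = 6 each), with a contrast of 0.42 ± 0.18 (exact permutation p = 0.0545) that missed the criteria without IM5 replicate 3 or 5.

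DUSP1, a phosphatase that switches off MAP kinases, went the other way. It ran between 7.99 and 8.31 in CON, between 7.21 and 8.62 in IM5 and between 8.13 and 8.69 in IM10, so that IM5 held both the lowest pigs and one of the higher ones. Its contrast of -0.32 ± 0.14 (exact permutation p = 0.0649) became -0.17 without IM5 replicate 4 and missed the criteria without IM5 replicate 4 or 6. Of the 19 measured immediate early genes 2 were higher and 1 lower by the criteria, against 0.528% and 0.341% of all genes with 1 symbol. At an unadjusted p under 0.05 in limma 5 were higher and 1 lower in IM5, against 3.31% and 2.97% of all probe sets, and the median contrast was 0.07.

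MAPK10, which encodes the JNK3 kinase, had the smallest unadjusted p of all named genes. Its values were 2.91 to 3.09 in CON (median 3.04), 3.16 to 3.49 in IM5 (median 3.35) and 2.67 to 3.16 in IM10 (median 3.04). Every IM5 pig exceeded every CON pig, and 5 of 6 exceeded every IM10 pig. The contrast was 0.32 ± 0.07, or 1.25-fold (unadjusted p = 0.00011 and adjusted p = 0.498 in limma), with an exact permutation p of 0.000215. The exact p was 0.00216 against CON, the smallest that 6 pigs against 6 allow, and 0.00433 against IM10. Values of this size lie low on the scale of the arrays, whose medians ran between 5.05 and 5.15, and detection calls were not analysed here. The same limit holds for CNKSR2, IL20RA, RPAP3 and LOC100524754 below, with means over all arrays of 3.01, 3.16, 3.25 and 1.72.

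Other peaks occurred in genes of unlike functions. PRSS8, which encodes the serine protease prostasin, averaged 4.69 ± 0.17 in CON, 5.00 ± 0.17 in IM5 and 4.70 ± 0.10 in IM10 (SD, n = 6 each), and 5 of 6 IM5 pigs exceeded all others. Its contrast of 0.31 ± 0.07 had an exact permutation p of 0.000646. SLC44A4, a solute carrier of the choline transporter-like family, CDX1, a homeobox factor of the intestine, and PLPP4, a phospholipid phosphatase, were peaks with contrasts of 0.30, 0.29 and 0.29. DHRS3, a retinaldehyde reductase, was a further peak, with means of 9.10, 9.39 and 9.12 in CON, IM5 and IM10 and a contrast of 0.28 ± 0.10 (exact permutation p = 0.0162) that became 0.22 without IM5 replicate 5. It was the only one of 18 measured retinoid genes to meet the criteria (5.56%, against 0.869% of all genes with 1 symbol). MEGF11, a membrane protein with EGF-like repeats, was a peak with a contrast of 0.42 ± 0.14 (exact permutation p = 0.0178).

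Other genes that met the criteria with IM5 higher were not peaks, since IM5 missed the fold or the p criterion against at least 1 end. NNMT, which uses S-adenosylmethionine to methylate nicotinamide, averaged 6.26 ± 0.92 in CON, 6.64 ± 0.64 in IM5 and 5.71 ± 0.36 in IM10 (SD, n = 6 each). The exact p was 0.413 against CON and 0.0108 against IM10. MOCS1, an enzyme of molybdenum cofactor synthesis, had a contrast of 0.53 ± 0.22, and IM5 was higher than IM10 (exact p = 0.0152) but not separable from CON (exact p = 0.141). BMP4, a ligand of the TGF-beta family, followed the same course, with means of 5.07, 5.29 and 4.89 in CON, IM5 and IM10 and exact p-values of 0.123 against CON and 0.00866 against IM10. CNKSR2, a scaffold of Ras signalling, had a contrast of 0.67, but its IM5 values ran between 2.49 and 4.56 and its exact permutation p was 0.0748. For GSTM3, a glutathione S-transferase, 4 IM5 pigs were above and 1 was below all 12 others, so that its contrast of 0.38 described a wider spread as well as a higher mean.

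Macrophage markers had slightly higher means in IM5. In bulk liver, more cells of a type and more RNA per cell cannot be told apart. All 17 measured macrophage markers had a positive contrast, and their median contrast was 0.15, against 0.00 over all genes. The larger side was that to IM10, with a median difference of 0.08 for IM5 minus CON and 0.17 for IM5 minus IM10. IM5 was above both other means in 14 of them and below both in 0, against 34.7% and 33.2% of all genes. Only CLEC4F, a lectin of Kupffer cells in the mouse, met the criteria (5.88% of the list, against 0.869% of all genes with 1 symbol). It had a contrast of 0.27 ± 0.13 and an exact permutation p of 0.108. Its means of 7.56 in CON, 7.62 in IM5 and 7.14 in IM10 placed IM5 near CON (exact p = 0.641) and above IM10 (exact p = 0.0346), so the contrast came mainly from a low level in IM10. C1QC and C1QB, subunits of complement C1q, had contrasts of 0.21 and 0.20, and CSF1R, the receptor for colony-stimulating factor 1, had 0.16. These markers belong to 1 cell type and were measured in the same pigs, so 17 genes are not 17 observations. Their mean level per pig overlapped between groups, with 7.22 to 7.53 in CON, 7.33 to 7.64 in IM5 and 7.11 to 7.45 in IM10. CTSZ, a lysosomal cysteine protease with a contrast of 0.32, and MS4A7, a membrane protein of monocytes and macrophages with 0.55, both met the criteria beside this shift, whose part in them was not tested.

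Endothelial, stellate cell and matrix genes showed a like shift with no gene that met the criteria. Of 13 liver endothelium markers 10 had their highest mean in IM5 and 0 their lowest, against 34.7% and 33.2% of all genes. Their median contrast was 0.10. The largest values were those of ENG, the TGF-beta co-receptor endoglin, at 0.22 and RAMP2, a partner of the adrenomedullin receptor, at 0.16. The mean level per pig overlapped between groups, with 7.01 to 7.20 in CON, 7.14 to 7.29 in IM5 and 7.03 to 7.23 in IM10. The 26 collagen and matrix genes had a positive contrast in 24, where 6209 of all 12307 genes with 1 symbol had one. Their median was 0.09, led by TIMP1, an inhibitor of metalloproteinases, at 0.23. The 11 stellate cell and fibroblast markers had a median of 0.09. As with the macrophage markers, the genes of a list were measured in the same pigs and are not separate observations. KIT, the receptor for stem cell factor and a marker of mast cells, met the criteria with a contrast of 0.31 ± 0.13, yet its means of 4.89 in CON, 5.37 in IM5 and 5.23 in IM10 placed IM10 near IM5 (exact p of IM5 against IM10 = 0.42). The 13 hepatocyte markers, by contrast, had a median contrast of 0.00, with mean levels of 11.75 in CON, 11.76 in IM5 and 11.74 in IM10, on arrays of tissue labelled as liver.

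**Figure D3:**
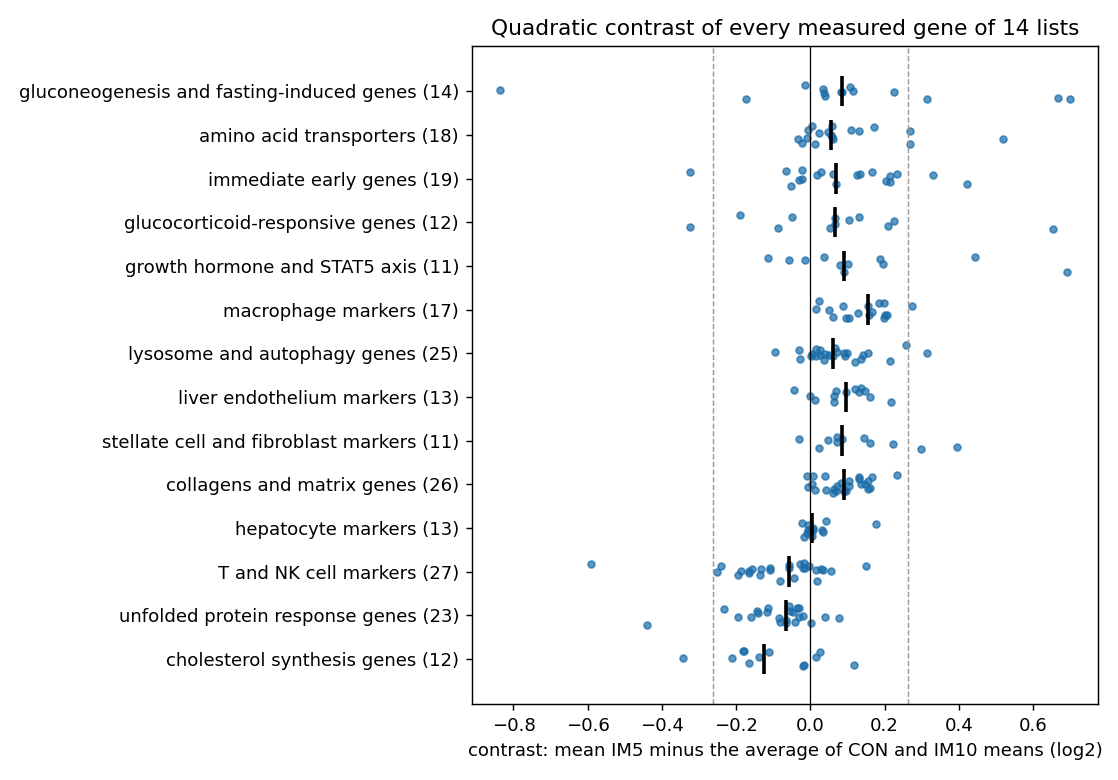
Each point is the quadratic contrast (log2) of 1 measured gene, by list, with the number measured in parentheses and the list median as a black bar. Dashed lines mark 1.2-fold in either direction, and medians run between -0.12 for cholesterol synthesis and 0.15 for macrophage markers.

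Genes with the lowest mean in IM5 were led by TMEM52B, a transmembrane protein, which had the largest negative contrast and was no dip. It ran between 2.88 and 5.89 in CON (median 5.54), between 2.59 and 3.45 in IM5 (median 2.84) and between 2.41 and 5.25 in IM10 (median 3.03). Of the CON pigs 5 were high and 1 was as low as the insect meal groups, while 5 of 6 IM10 pigs were as low as IM5. The contrast was -1.25 ± 0.40 (exact permutation p = 0.057), with an exact p of 0.00866 for IM5 against CON and 0.563 for IM5 against IM10. Both insect meal groups thus had means below CON, and the data did not separate IM5 from IM10.

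KLRK1, which encodes the NKG2D receptor of natural killer cells and cytotoxic T cells, had the largest contrast among the named dips. The values were 3.98 to 5.05 in CON (median 4.41), 3.28 to 4.12 in IM5 (median 3.79) and 3.82 to 4.91 in IM10 (median 4.26). Of the IM5 pigs 3 lay below all 12 others, and the IM10 pigs fell into a higher and a lower set of 3. The contrast was -0.59 ± 0.18, or 1.51-fold lower (exact permutation p = 0.00711), with an exact p of 0.013 against CON and 0.0541 against IM10. Of 27 measured T and NK cell markers KLRK1 alone met the criteria (3.7%, against 0.869% of all genes with 1 symbol). IM5 had the lowest mean in 14 and the highest in 2, against 33.2% and 34.7% of all genes. The median contrast was -0.06, and GZMA, the protease granzyme A, had -0.19. The mean level of the list was 5.02 ± 0.16 in CON, 4.88 ± 0.17 in IM5 and 4.92 ± 0.13 in IM10 (SD, n = 6 each). IKZF2, the lymphocyte transcription factor Helios, was a dip with a contrast of -0.32 ± 0.09 (exact permutation p = 0.00399) on 1 probe set, while another with the higher signal had -0.23, did not meet the criteria and was no dip.

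NOSTRIN, an adaptor that moves endothelial nitric oxide synthase off the membrane, was a dip although the endothelium markers lay the other way. Its values were 6.50 to 7.09 in CON (median 6.86), 5.61 to 6.82 in IM5 (median 6.60) and 6.74 to 7.25 in IM10 (median 7.01). A single IM5 pig, replicate 5, was far below the rest. The contrast was -0.46 ± 0.14 (exact permutation p = 0.00474), and without that pig it was -0.28 and still met the criteria (unadjusted p = 0.00733 in limma).

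HSPA13, a member of the Hsp70 family in the endoplasmic reticulum, was lower in IM5 than in CON. It averaged 6.62 ± 0.38 in CON, 5.99 ± 0.37 in IM5 and 6.24 ± 0.28 in IM10 (SD, n = 6 each), and 4 IM5 pigs lay below all 12 others. The contrast was -0.44 ± 0.15 (exact permutation p = 0.0276), with an exact p of 0.0238 against CON and 0.206 against IM10. IM10 was also lower than CON (difference -0.38, unadjusted p = 0.0441 in limma). Of 23 measured genes of the unfolded protein response HSPA13 alone met the criteria (4.35%, against 0.869% of all genes with 1 symbol). IM5 had the lowest mean in 17 and the highest in 2, against 33.2% and 34.7% of all genes. The median contrast was -0.07, and ERO1B, an oxidase for disulfide formation, had -0.23 with an unadjusted p of 0.0385 in limma. HSPA5, the chaperone BiP, had means of 10.47, 10.24 and 10.29 in CON, IM5 and IM10, which places IM10 near IM5.

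Cholesterol synthesis genes had the lowest median contrast among the 14 lists plotted, -0.12 over 12 measured genes. Their median difference was -0.04 for IM5 minus CON and -0.21 for IM5 minus IM10. Mean levels of the list were 9.12 in CON, 9.10 in IM5 and 9.29 in IM10. The list contrast thus came mainly from a higher level in IM10. HMGCS1, the cytosolic HMG-CoA synthase, was the only gene of the list to meet the criteria (8.33%, against 0.869% of all genes with 1 symbol). Its values were 10.29 to 10.87 in CON (median 10.69), 9.74 to 10.92 in IM5 (median 10.50) and 10.53 to 11.30 in IM10 (median 10.94). The groups overlapped, and the difference between IM5 and IM10 was the larger side. The contrast was -0.34 ± 0.15 (exact permutation p = 0.0751) and became -0.20 without IM5 replicate 5. STARD4, a sterol carrier, and the enzymes NSDHL and MSMO1 had contrasts of -0.18, -0.18 and -0.14 with unadjusted p-values of 0.0154, 0.0333 and 0.0295 in limma, and all 3 missed the criterion on fold.

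KYNU, the kynureninase of tryptophan breakdown, had the smallest SE of the named genes. It ran between 8.62 and 8.92 in CON (median 8.75), between 8.37 and 8.67 in IM5 (median 8.50) and between 8.67 and 8.91 in IM10 (median 8.80). Of the IM5 pigs 5 lay below all others. The contrast of -0.26 ± 0.06 sat at the limit of 1.2-fold, so that it missed the criterion without CON replicate 1 or 2, or without replicate 1, 2 or 3 of IM5 or of IM10, and had an exact permutation p of 0.000539, with exact p-values of 0.00866 against CON and 0.00433 against IM10. KYNU was no dip, since IM5 was only 1.18-fold lower than CON. It was the only one of 20 measured amino acid breakdown enzymes to meet the criteria (5.0%, against 0.869% of all genes with 1 symbol).

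Further dips were spread over unrelated functions. DSPP, the precursor of dentin matrix proteins, had a contrast of -0.39 ± 0.11 with 5 IM5 pigs below all others (exact permutation p = 0.00162). UBE2B, a ubiquitin-conjugating enzyme, and RPAP3, a subunit of a chaperone complex for RNA polymerases, had contrasts of -0.33 and -0.37, again with 5 IM5 pigs below all others. XRCC4, a scaffold of DNA end joining, averaged 5.13 ± 0.08 in CON, 4.79 ± 0.30 in IM5 and 5.13 ± 0.15 in IM10 (SD, n = 6 each), and the IM5 pigs were split into 4 low and a pair of high values. LRRCC1, a centrosome protein, PYROXD2, a mitochondrial oxidoreductase-like protein, and LOC100524754 completed the named dips with -0.34, -0.40 and -0.28. LOC100524754 had a very low mean of 1.72 over all arrays. It missed the criteria without CON replicate 2, CON replicate 6 or IM5 replicate 5. MAP10, a microtubule-associated protein, was no dip. It had -0.63 on 1 probe set, where the exact test of IM5 against IM10 gave p = 0.0931. Another probe set with the higher signal had -0.18 and did not meet the criteria. Its means were 5.43 in CON, 5.03 in IM5 and 4.98 in IM10, with IM5 between the ends.

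**Figure D4:**
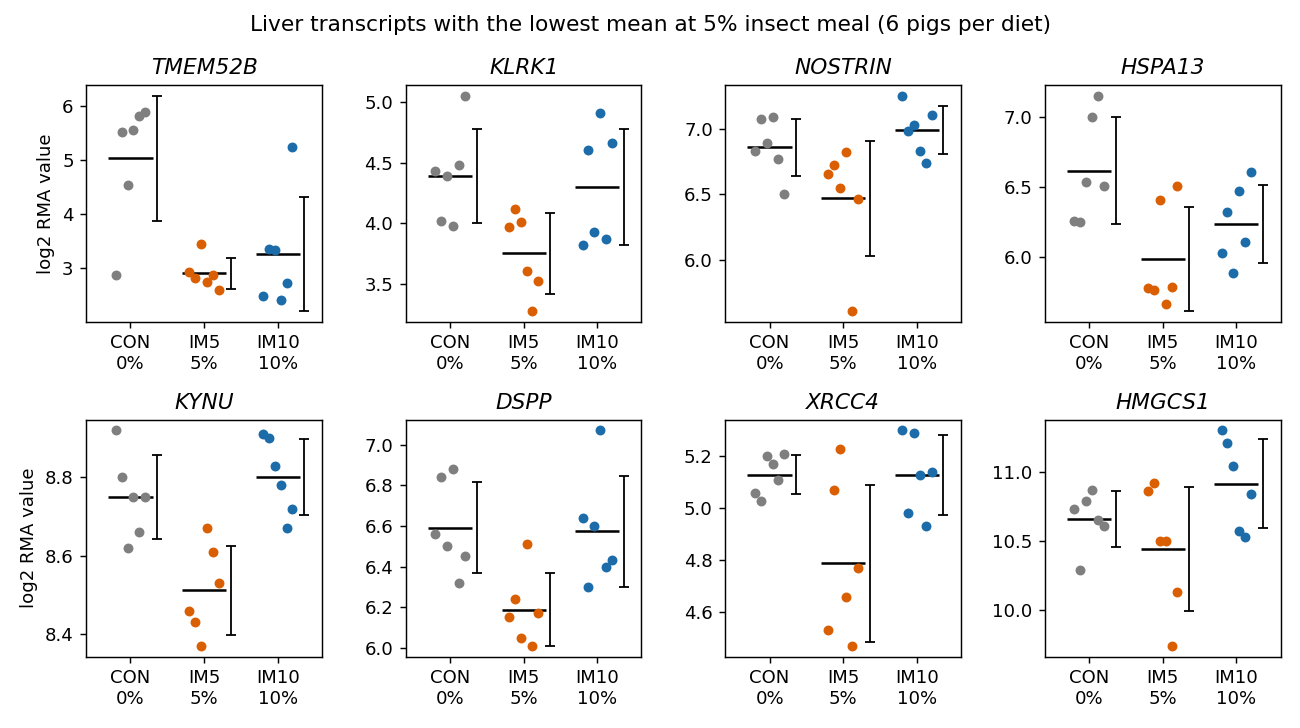
The log2 value of each pig is plotted by diet for 8 genes with the lowest mean at 5% insect meal, with the group mean as a bar and the SD as a bracket to its right. The vertical axes do not start at 0 and differ between panels. TMEM52B was as low in 5 of 6 IM10 pigs as in IM5, whereas KYNU and DSPP had 5 of 6 IM5 pigs below all 12 others.

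Other named genes had less even values. OSGIN2, a gene related to an oxidative stress-induced growth inhibitor, had a contrast of -0.70 but IM5 values of 2.41 to 4.64, and its exact permutation p was 0.0905. CPXM2, a carboxypeptidase-like secreted protein, had -0.61, with 6.22 to 7.82 in CON, 6.22 to 6.77 in IM5 and 6.05 to 7.84 in IM10. KCNMA1, the pore of the large-conductance potassium channel, had -0.42 and IL20RA, a receptor subunit for interleukins of the IL-20 family, -0.41. KCNMA1 is also expressed in smooth muscle, and the mean level of 11 smooth muscle markers ran up to 7.11 in 1 IM5 pig against 6.01 in the highest CON pig and 6.45 in the highest IM10 pig, whose part in KCNMA1 was not tested.

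Complete separation of the 6 IM5 pigs from all 12 others was rare. It was found in 1 probe set above (0.00394% of all) and 4 below (0.0158%), none of which reached 1.2-fold on the quadratic contrast, and these genes were singled out after their values had been seen. ANXA6, a calcium-dependent membrane-binding annexin, was the one above, with 7.59 to 7.81 in CON, 7.82 to 8.10 in IM5 and 7.38 to 7.79 in IM10. Those below were SLC35A3, a Golgi carrier of UDP-N-acetylglucosamine, with a contrast of -0.26, TRIP4, a transcriptional coactivator, with -0.23, NT5C2, a cytosolic nucleotidase, with -0.17, and a probe set with no gene name. Each had an exact permutation p of 0.000108, the smallest that 6 of 18 arrays allow.

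The calls depended on single IM5 pigs. Among the 253 probe sets that met the criteria, IM5 replicate 5 was the most extreme IM5 pig in 74, and in 21 of the 47 named probe sets, which covered 46 genes. IM5 replicate 4 was the least extreme in 79 and 17. Without IM5 replicate 5, 261 probe sets met the criteria, but only 155 of the original 253 (61.3%) were among them, and 20 of the 47 named probe sets dropped out. Without IM5 replicate 1 or 6, 168 and 174 of the 253 were kept and 13 and 14 named probe sets dropped out. PCK1, KLF9, ZFP36, MAPK10, KLRK1, NOSTRIN, HSPA13 and TMEM52B were among the 19 named probe sets that met the criteria whichever array was left out. CDX1, LRRCC1 and PRSS8 dropped out only without IM5 replicate 1, and GPT2 and KCNMA1 only without IM5 replicate 5. At the other end, CLEC4F, SLC38A2 and OSGIN2 missed the criteria without any 1 of 11 arrays, CTSZ without any 1 of 10 and NNMT and SLC6A12 without any 1 of 8. Without IM5 replicate 4 the count was 428, with 79 peaks and 65 dips, and 203 of the 253 were among them.

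**Figure D5:**
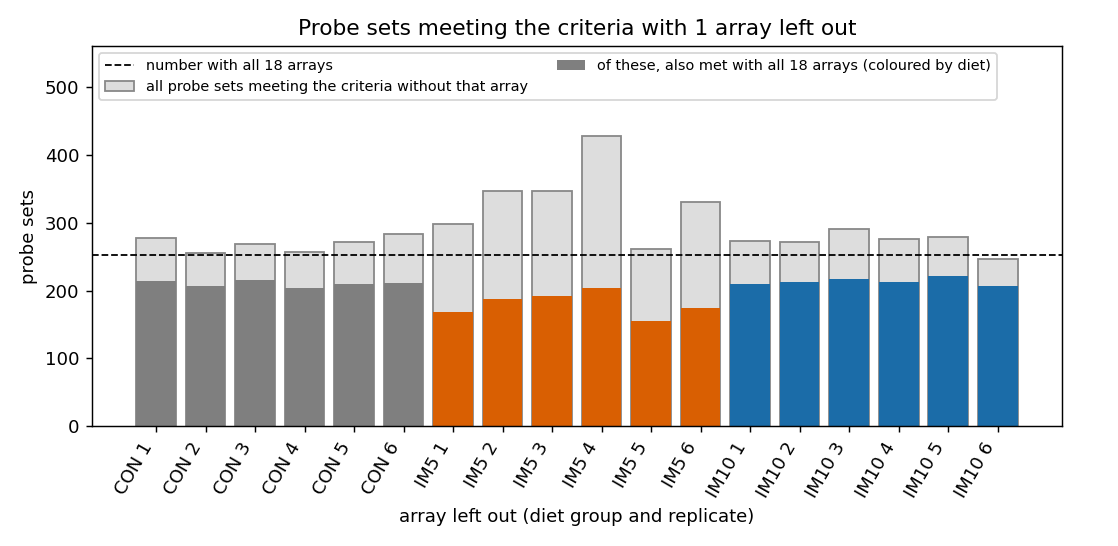
Bars give the number of probe sets meeting the quadratic criteria when the array on the horizontal axis was left out, and the coloured part gives those also met with all 18 arrays. The count ran between 246 and 428, and leaving out IM5 replicate 5 kept the fewest of the original 253, 155.

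Of the 670 measured genes on all 44 lists, 16 met the criteria with IM5 higher and 5 with IM5 lower, or 3.13%, against 0.869% of the 12307 genes with 1 symbol. The lists were chosen with earlier results of these data known, so this difference in share is no independent result. The largest contrast of any gene with a name belonged to SAA3, an acute phase protein, with 1.25 (means of 7.60, 8.84 and 7.58 in CON, IM5 and IM10), but it missed the criterion on p (unadjusted p = 0.0532 in limma). The medians of SAA3 were closer together, at 8.51 in CON, 8.91 in IM5 and 8.41 in IM10. A pair of very low pigs in CON (5.35 and 5.49) and another in IM10 (5.03 and 5.73) lowered those means, and the lowest IM5 pig was at 8.52. The other 16 measured acute phase genes did not meet the criteria either, and neither did any of the 14 chitinases and chitin-binding proteins, the 22 interferon-stimulated genes, the 35 chemokines and interleukins or the 9 urea cycle genes.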

How the data were processed

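Total RNA from liver was hybridised to Affymetrix Porcine Gene 1.0 ST arrays, 1 array per pig. The authors deposited log2 values normalised by robust multi-array averaging (RMA) in Affymetrix Expression Console (version not given in the sources used here), with 25388 probe sets per array, and no scanner files were used here. RMA adjusts each array to a common distribution, so a shift of all transcripts would not be seen, and array intensity rather than read depth limits the precision. Array medians lay between 5.05 and 5.15 and array correlations between 0.986 and 0.992. The platform annotation gave 1 gene symbol for 13257 probe sets, several for 427 and none for 11704. The symbols were taken from the annotation, 12804 of these probe sets were matched by gene ID to the RefSeq table of Sscrofa11.1, and the build behind the array design was not used. The probe set with the highest mean stood for a gene with several.

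The 3 group means were fitted with limma 3.58.1 in R 4.3.3 (lmFit, contrasts.fit, eBayes), with the quadratic, pairwise and linear contrasts in the same fit and Benjamini-Hochberg adjustment over all probe sets. Exact two-sided permutation tests over pigs used all 18564 choices of 6 of 18 arrays, or all 924 choices of 6 of 12, whose smallest p-values were 0.000108 and 0.00216. The code was tested on simulated data. Named genes were the 10 largest contrasts in each direction that met the criteria, the 8 clearest peaks and 8 clearest dips, and list members that met the criteria. The lists and the contrast were chosen with earlier results of these data known, and no list was tested as a set. Alternatives were quantile normalisation, a filter on dim probe sets, other variance models, array weights, a replicate block, collapsing identical probe sets and leaving out each array. Where the study compared pairs of groups by a t-test, the fit without moderation stands for it.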

Additional observations from a re-analysis of the deposited data

Results flagged for a closer look

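Within 141 groups of 6 pigs (47 named probe sets by 3 diets), 9 values lay further from the nearest pig than Dixon's 95% limit allows, where chance alone flags about 1 group in 20. IM5 pigs stood apart in a pair of genes. KLF9 was 7.13 in IM5 replicate 5, next to 6.81, and NOSTRIN was 5.61 in the same pig, next to 6.46. IM10 pigs stood apart in 5 genes. CNKSR2 was 4.15 in IM10 replicate 1, next to 2.92, and CDX1 was 4.59 in that pig, next to 4.28. NNMT was 6.43 in IM10 replicate 2, next to 5.65, MOCS1 was 6.26 in IM10 replicate 4, next to 7.18, and TMEM52B was 5.25 in IM10 replicate 6, next to 3.36. CON pigs stood apart in SLC6A12, at 8.33 in CON replicate 6 next to 7.92, and in IL20RA, at 3.92 in CON replicate 3 next to 3.26.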

How the results depend on the processing

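The contrast of each named probe set kept its direction under all alternatives. The medians of 13 of the 44 lists crossed 0 under some alternative, most widely for interferon-stimulated genes (-0.1 to 0.12) and smooth muscle markers (-0.07 to 0.18). More probe sets were lower than higher without CON replicate 1 (136 higher, 141 lower) and without IM5 replicate 6 (158 higher, 173 lower). Leaving out the dimmest 25% of probe sets gave 162 probe sets meeting the quadratic criteria, 89 higher and 73 lower, and 20 peaks. All 162 were among the 253, of which they made 64.0%, so more than 25% of the calls were lost with the dimmest 25%. Without moderation of the variances, as in the methods' t-test, there were 19 peaks and 17 dips, and 185 probe sets met the quadratic criteria. With 1 array left out the counts ran between 246 and 428 for the quadratic term, 127 and 241 higher, 113 and 187 lower, 29 and 79 peaks, 29 and 65 dips and 478 and 589 for the linear term. The highest counts of peaks and dips were those without IM5 replicate 4, and without IM5 replicate 2 they were 62 and 57. With the replicate number as a block, 271 probe sets met the criteria, with 149 higher, 122 lower, 47 peaks, 44 dips and 519 for the linear term, but same-numbered pigs did not deviate together (correlations between -0.144 and 0.201 over 18 pairs), so the numbers pair nothing. Quantile normalisation gave 244, array weights 273, a variance trend 236 and collapsing identical probe sets 251. The adjusted p stayed above 0.05 for all probe sets in each of these fits. With 6 pigs per diet, 28 of the 47 named probe sets lost the criteria without some single array.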
